A study of Mus musculus with 12 samples.

Results

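Lysozyme and the lysosomal proteases of phagocytes were followed here through 10 mouse genes: Lyz1, Lyz2, Cd68, Ctsb, Ctsc, Ctsd, Ctss, Ctsz, Lgmn and Grn. They were chosen by symbol, and all 10 were found in both deposited tables, which together list 55488 gene IDs (32285 in the retina table and 55401 in the pericyte table). The study gave vesicles (MSC.sEV, small extracellular vesicles from mesenchymal stem cells) to the injured retina and to cultured pericytes and sequenced bulk RNA from 12 libraries of wild-type (WT) mouse samples. In the retina, 3 libraries labelled ONC+i.o.MSC.sEV and 3 labelled ONC+PBS date from day 1, and both groups carry the optic nerve crush (ONC), an injury of the retinal ganglion cell axons. The 6 other libraries came from brain microvascular pericytes at P4, 3 given MSC.sEV and 3 given phosphate-buffered saline (PBS) for 12 hours. The labels do not spell out i.o. or P4, do not say whether the PBS of the retina was given by the same route, and leave unstated whether replicates are different animals or cultures, so p-values measure the spread between these libraries only. The retina table names its columns by 2 short codes, CTR and M, which were read as PBS and vesicles, and every direction given for the retina rests on that reading.

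Lysosomes are acidic organelles in which phagocytes break down what they engulf. Lysozyme cleaves the peptidoglycan of bacterial cell walls. In the mouse it is made from a pair of neighbouring genes, Lyz2 (lysozyme M, the form of macrophages and neutrophils, widely used as a myeloid marker) and Lyz1 (lysozyme P, the form of Paneth cells of the gut). Ctsb, Ctss and Ctsz encode cysteine cathepsins and Ctsd an aspartic one, while Lgmn encodes legumain, a protease that cuts after asparagine and matures other cathepsins. Ctsc encodes dipeptidyl peptidase I, which activates the granule serine proteases of neutrophils, mast cells and cytotoxic lymphocytes. Cd68 encodes macrosialin, a glycoprotein of late endosomes and lysosomes of macrophages, and Grn encodes progranulin, a secreted and lysosomal precursor that lysosomal proteases cut into granulins.

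The sequences before the start sites of 5 of the genes are shown because the members differed in how far they moved although they share an organelle. Sequences were taken from RefSeq on build GRCm38.p6, whose promoter table held 9 of the 10 genes, and each is printed on the strand of its gene and ends before the start. The stretches of Ctsc and Cd68 reach the RefSeq start, and those of Lyz2, Lyz1 and Ctsd end short of it. Lyz2 and Lyz1 come first, as the pair whose counts differed most. Capitals in these 2 mark bases that differed, or had no partner, when the stretches were aligned to each other. In the other 3, capitals mark GAGGAA on either strand, the core of the sites of PU.1, a transcription factor of myeloid cells, or in Ctsd CACGTG, the core of the sites of the MiT/TFE factors that control lysosomal genes.
Lyz2 (chr10:117282322-117282522, minus strand): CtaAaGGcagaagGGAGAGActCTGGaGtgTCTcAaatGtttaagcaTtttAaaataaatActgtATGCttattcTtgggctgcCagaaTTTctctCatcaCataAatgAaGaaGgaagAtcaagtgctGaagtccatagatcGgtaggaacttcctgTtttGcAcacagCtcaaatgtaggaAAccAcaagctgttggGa
Lyz1 (chr10:117292918-117293118, minus strand): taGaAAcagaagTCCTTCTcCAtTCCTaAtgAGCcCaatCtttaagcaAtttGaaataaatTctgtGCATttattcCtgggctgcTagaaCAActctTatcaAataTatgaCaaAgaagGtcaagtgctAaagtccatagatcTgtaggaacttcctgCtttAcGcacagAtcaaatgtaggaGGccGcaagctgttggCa
Ctsc (chr7:88277835-88278084, plus strand): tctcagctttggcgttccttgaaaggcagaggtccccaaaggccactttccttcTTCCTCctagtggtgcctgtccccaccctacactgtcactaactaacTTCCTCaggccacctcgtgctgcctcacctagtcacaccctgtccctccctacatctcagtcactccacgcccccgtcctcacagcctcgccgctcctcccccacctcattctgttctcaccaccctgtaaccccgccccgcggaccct
Cd68 (chr11:69666171-69666420, minus strand): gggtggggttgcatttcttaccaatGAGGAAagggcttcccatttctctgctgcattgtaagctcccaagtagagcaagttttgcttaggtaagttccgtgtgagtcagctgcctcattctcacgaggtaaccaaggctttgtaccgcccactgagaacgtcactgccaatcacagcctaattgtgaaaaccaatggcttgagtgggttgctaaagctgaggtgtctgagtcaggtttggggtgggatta
Ctsd (chr7:142388039-142388077, minus strand): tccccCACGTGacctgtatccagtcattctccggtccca

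The Lyz2 and Lyz1 stretches had the same base at 151 of 199 aligned positions (75.9%). Over whole windows of 300 bases, which also cover the first bases of each gene, the pair matched at 249 of 298 positions (83.6%). Letter matches were counted in all 32851 RefSeq windows of 300 bases on both strands. GAGGAA was found for 4 of 9 member genes (Cd68, Ctsc, Ctss and Grn), against 28.3% of all windows, and CACGTG for 2 (Ctsd and Lgmn), against 7.15%. TGANTCA, the AP-1 site, was found for Cd68, against 7.81% of all windows, and TTGCNNAA, a C/EBP-type site, for Cd68 and Lyz1, against 10.8%. These are matches of letters and do not show binding.

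The retina libraries held between 15580024 and 16842926 counts and the pericyte libraries between 33001248 and 37954077. Normalised counts are written as CPM, each library being set to the same TMM-scaled total, and a count of 3 came to between 0.180 and 0.196 CPM in a retina library and between 0.0777 and 0.0894 CPM in a pericyte library. In the retina, crystallins and other lens mRNAs summed to 17519, 70678 and 101 CPM with vesicles and to 6679, 673 and 586 CPM with PBS, so the lens-richest library of each group was vesicle library 2 and PBS library 1. Rod photoreceptor mRNAs were abundant in all retina libraries, at between 66788 and 80723 CPM with vesicles and between 97814 and 103567 CPM with PBS. In the pericyte libraries Pdgfrb, the receptor that marks pericytes, had between 65.2 and 74.0 CPM with vesicles and between 56.1 and 63.1 CPM with PBS. Rgs5, another defining pericyte mRNA, was near 0, at 0.492 to 1.35 CPM with vesicles and 0.0777 to 0.475 CPM with PBS. All 10 pericyte and mural markers summed in these libraries to between 698 and 713 CPM with vesicles and between 667 and 712 CPM with PBS. Glial mRNAs were present there: Aqp4 had 589 to 641 CPM with vesicles and 463 to 486 CPM with PBS, and Olig2 had 49.0 to 58.4 CPM with vesicles and 60.1 to 66.6 CPM with PBS. The identity of these cells was not tested, and they are called pericyte-labelled below.

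In the retina with vesicles, Lyz2, Ctsc, Cd68, Ctsz, Ctss, Ctsd and Grn were higher than with PBS, by between 1.43-fold for Ctsd and 17.0-fold for Lyz2. Ctsb and Lgmn did not pass the test, and Lyz1 had too few counts to be tested. Of the 9 members that passed the filter on low counts, 7 were called higher and 0 lower by edgeR's quasi-likelihood test at a Benjamini-Hochberg adjusted p under 0.05. Of all 15440 genes tested in the retina, 10.7% were called higher and 5.19% lower (15.9% in all) by that test. At an unadjusted p under 0.05 the counts of members were 8 and 1. Such p-values were common: Ctsb, with an unadjusted p of 0.0209 in edgeR's quasi-likelihood test, ranked 3421st by p of the 15440 genes. DESeq2 called 7 members higher and 1 lower, against 2007 higher and 976 lower of 17052 genes. In 8 of the 9 the log2 fold change lay above 0, against 48.3% of all genes. The median log2 fold change (vesicles over PBS) of the 9 members was 0.76, against -0.02 over all genes tested. In bulk RNA, fewer or more cells of a type and less or more RNA per cell cannot be told apart.

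**Figure D1:**
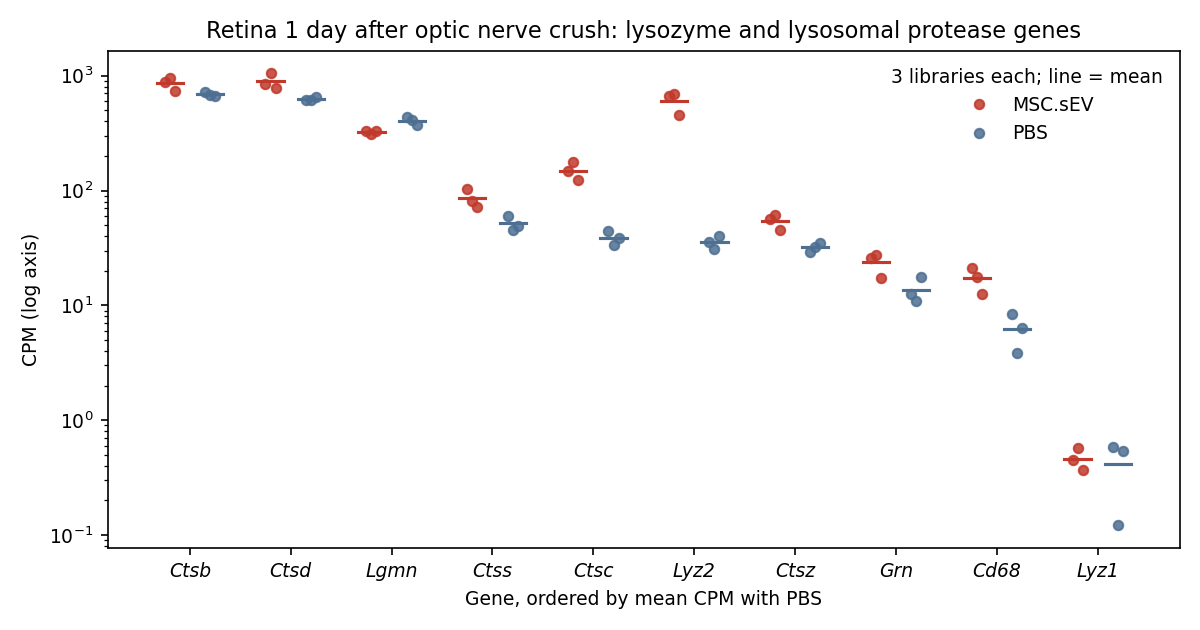
Normalised counts (CPM, log axis) of the 10 genes in retina 1 day after optic nerve crush, with 3 MSC.sEV libraries left of 3 PBS libraries for each gene, points for libraries and lines for means. Lyz2 stood at 455 to 689 CPM with vesicles and at 30.9 to 40.0 CPM with PBS, the widest gap of the 10, while Ctsb, Ctsd and Lgmn were high in both groups and Lyz1 was under 1 CPM in all libraries.

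Lyz2 had 662, 689 and 455 CPM in the vesicle libraries, against 35.6, 30.9 and 40.0 CPM in the PBS libraries. The lowest vesicle library stood more than 10 times above the highest PBS library. Mean levels were 602 ± 128 CPM with vesicles and 35.5 ± 4.59 CPM with PBS (SD, n = 3 each), a log2 fold change of 4.08 ± 0.19 (SE; 95% interval 3.66 to 4.51; adjusted p = 2.34e-05), the 5th smallest p of 15440 genes. The raw counts were 10409, 10917 and 7378 with vesicles and 546, 508 and 667 with PBS, so counting error was small beside the spread between libraries.

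Lyz1 had 7, 9 and 6 counts with vesicles, against 9, 2 and 9 counts with PBS. The groups overlapped, and the summed counts of 22 with vesicles and 20 with PBS gave a ratio of 1.12 per scaled library total, with a 95% counting interval from 0.581 to 2.16. At this depth no difference was detectable for Lyz1, while its neighbour moved 17.0-fold. Both genes lie on the minus strand of chromosome 10 (GRCm38, GENCODE M21), Lyz2 at chr10:117277331-117282321 and Lyz1 at chr10:117287797-117292868, 5475 bases apart with 0 genes between them. Their transcripts match at 1211 of 1262 aligned bases (96.0%). Of the windows of Lyz1, 16.06% of those of 50 bases and 2.06% of those of 100 bases occur unchanged in Lyz2. A read that lies within such a window could not be assigned to one of the 2 genes. The share of such reads was not counted, and the authors' handling of them is not given.

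Ctsc, the activator of granule serine proteases, had 147, 177 and 124 CPM with vesicles, against 44.0, 33.8 and 38.5 CPM with PBS. All vesicle libraries were above all PBS libraries. The log2 fold change was 1.94 ± 0.15 (95% interval 1.61 to 2.28; adjusted p = 0.000118, edgeR's quasi-likelihood test). Cd68 had 21.3, 17.6 and 12.6 CPM with vesicles, against 8.35, 3.83 and 6.30 CPM with PBS. The groups did not overlap, but Cd68 was one of the least abundant members, and its log2 fold change of 1.48 ± 0.30 carried a 95% interval from 0.80 to 2.16 (adjusted p = 0.0116).

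The other cysteine cathepsins moved less. Ctsz, a carboxypeptidase, had 56.4, 60.9 and 45.5 CPM with vesicles, against 29.2, 32.1 and 35.0 CPM with PBS, a log2 fold change of 0.76 ± 0.13 (adjusted p = 0.00459). Ctss, which trims the invariant chain of MHC class II, had 103, 80.9 and 71.7 CPM with vesicles, against 60.3, 45.4 and 49.6 CPM with PBS, a log2 fold change of 0.72 ± 0.16 (adjusted p = 0.0142). Neither gene had overlapping groups, and in both the lowest vesicle value came from vesicle library 3. Ctsb had 881, 950.2 and 737 CPM with vesicles, against 728, 676 and 662 CPM with PBS. Its groups did not overlap either, but the log2 fold change of 0.31 ± 0.11 (95% interval 0.06 to 0.57) missed the threshold (adjusted p = 0.0943, edgeR's quasi-likelihood test, and 0.0298 without vesicle library 3).

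Ctsd, the aspartic cathepsin, had 855, 1048 and 787 CPM with vesicles, against 611, 611 and 656 CPM with PBS, a log2 fold change of 0.52 ± 0.12 (adjusted p = 0.017) with no overlap. The call was lost when vesicle library 1, vesicle library 2 or PBS library 2 was left out (adjusted p = 0.0502, 0.0536 and 0.0731). Ctss lost its call without PBS library 2 or 3 (adjusted p = 0.0613 and 0.0518). Grn, the progranulin gene, had 26.0, 27.4 and 17.5 CPM with vesicles, against 12.5, 11.0 and 17.6 CPM with PBS. Vesicle library 3 fell within the PBS range, and the log2 fold change of 0.79 ± 0.22 (adjusted p = 0.0441) was no longer called without vesicle library 1 or 2 or PBS library 1 or 2 (adjusted p between 0.127 and 0.152).

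Lgmn was the member whose values lay below PBS. It had 333, 312 and 333 CPM with vesicles, against 436, 408 and 370 CPM with PBS. The groups did not overlap, and the log2 fold change of -0.31 ± 0.10 (95% interval -0.52 to -0.10) stood just outside the threshold in edgeR's quasi-likelihood test (adjusted p = 0.0537) and inside it in DESeq2 (adjusted p = 0.027) and without PBS library 3 (adjusted p = 0.0479). Of the 9 tested members, 7 had all vesicle libraries above all PBS libraries, against 19.5% of all genes tested. Lgmn had them all below, against 16.2% of all genes, so 8 of 9 members had no overlap, against 35.7%.

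Per length of transcript, the order of the members changed. With vesicles, Lyz2 came first at 458 ± 97.4 CPM per kilobase (SD, n = 3), then Ctsd at 382 ± 57.6, Ctsb at 141 ± 18.0 and Lgmn at 140.3 ± 5.22 CPM per kilobase. The libraries of Lyz2 and Ctsd overlapped, as did those of Ctsb and Lgmn. Below them, without overlap between neighbours, stood Ctss at 62.8 ± 12.0, Ctsz at 37.6 ± 5.50, Ctsc at 25.7 ± 4.57, Cd68 at 13.7 ± 3.49, Grn at 6.80 ± 1.55 and Lyz1 at 0.365 ± 0.0792 CPM per kilobase.
With PBS, Ctsd came first at 266 ± 11.1 CPM per kilobase (SD, n = 3), then Lgmn at 174 ± 14.3, Ctsb at 114 ± 5.75 and Ctss at 38.1 ± 5.67, with no overlap among these 4. Lyz2 came 5th, at 27.0 ± 3.49 CPM per kilobase, with libraries that overlapped those of Ctsz (22.3 ± 2.02). Ctsc (6.68 ± 0.877), Cd68 (4.90 ± 1.80) and Grn (3.94 ± 0.996 CPM per kilobase) overlapped as neighbours.
Lyz2 took 21.5%, 20.5% and 17.6% of the counts of the 10 genes in the vesicle libraries, against 1.81%, 1.67% and 2.13% in the PBS libraries. Per length, the ratio of Lyz2 to Ctss was 6.61, 8.79 and 6.55 with vesicles and 0.609, 0.702 and 0.833 with PBS, so Lyz2 was the lower of the 2 in each PBS library and the higher in each vesicle library. The 10 genes together held 0.306%, 0.316% and 0.267% of all counts with vesicles and 0.193%, 0.190% and 0.192% with PBS.

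Some exon bases of 4 members are shared with other genes in GENCODE M21 on GRCm38, so their counts are uncertain in those parts. Ctsb shares 774 bases with Fdft1 on the opposite strand, Ctsd 808 bases with Gm49369 on the same strand, Grn 68 bases with Fam171a2 and Ctsz 10 bases with Nelfcd, both on the opposite strand. The sources used here do not say whether the libraries kept the strand. Lyz1, Lyz2, Cd68, Ctsc, Ctss and Lgmn share no exon bases with another gene in that annotation.

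Markers of phagocytes moved with these genes in the retina. All 13 monocyte and macrophage markers were called higher with vesicles, with none at 0, and their summed level was 681, 661 and 464 CPM with vesicles, against 84.1, 56.2 and 82.1 CPM with PBS. Of 10 neutrophil markers 8 were tested and 7 called higher, and their sum was 629, 778 and 352 CPM with vesicles, against 16.9, 6.50 and 29.3 CPM with PBS. Vesicle library 3 had the lowest level of both sums in its group, as it had for Lyz2, Ctsc, Cd68, Ctss, Ctsz, Ctsd, Ctsb and Grn. Markers of resting microglia went another way: of 7, 1 was called higher and 3 lower, and their sum was 17.4 to 20.7 CPM with vesicles and 27.3 to 29.9 CPM with PBS. Of the 16 lens markers 0 were called by edgeR, 0 had an unadjusted p under 0.05 and 1 was called by DESeq2. Among the vesicle libraries, the lens and resting microglia sums were also lowest in library 3. Within that group Lyz2, Ctsc, Ctsz, Ctsd, Ctsb and Grn were highest in library 2, as were the lens and neutrophil sums. Cd68, Ctss and the monocyte and macrophage sum were highest in library 1. The part of these cell types in the members' levels was not tested.

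**Figure D2:**
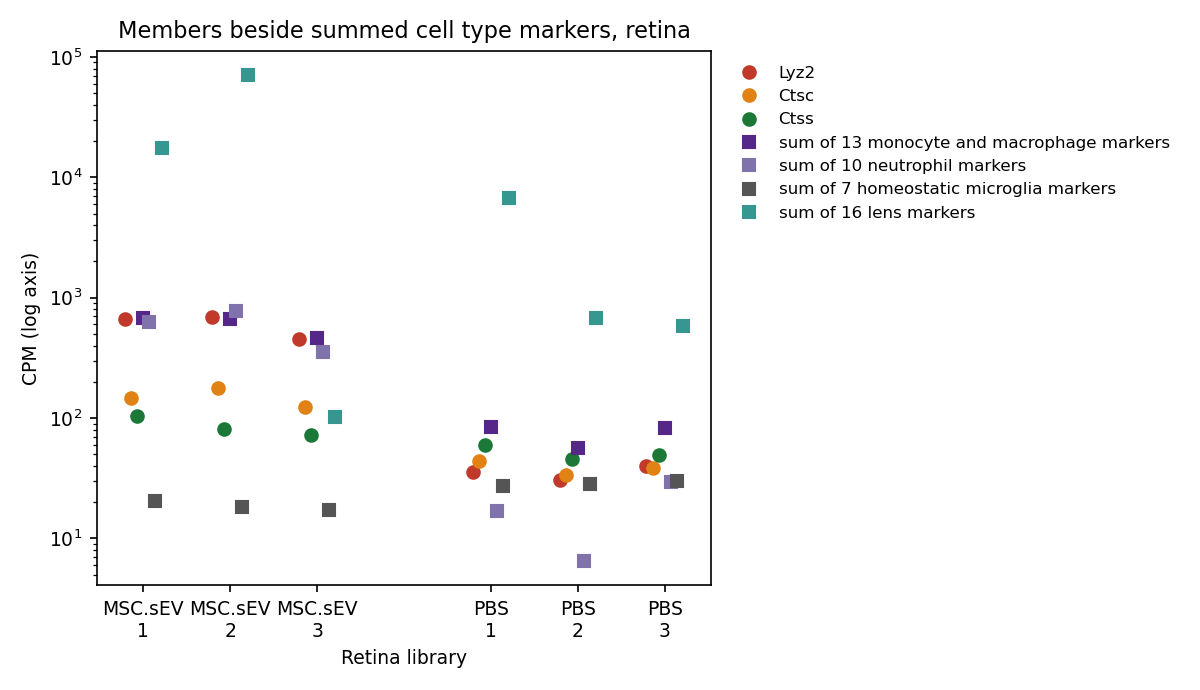
Levels (CPM, log axis) of Lyz2, Ctsc and Ctss as circles and summed levels of 4 marker lists as squares in each retina library, MSC.sEV left of PBS. The phagocyte sums and Lyz2 were all higher with vesicles. In that group they were lowest in library 3, as were the lens and microglia sums. The lens sum ranged from 101 to 70678 CPM with vesicles and from 586 to 6679 CPM with PBS.

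Without the lens-richest library of each group, 6 of 9 members were called higher, with Grn the one lost (adjusted p = 0.25). Of all 15540 genes tested in that fit, 9.14% were called in either direction. The log2 fold changes without these libraries, a pair left out together, were 3.99 for Lyz2, 1.92 for Ctsc, 1.75 for Cd68, 0.89 for Ctss, 0.61 for Ctsz and 0.39 for Ctsd. Lyz2, Ctsc, Cd68 and Ctsz were called in every alternative fit of the retina, with adjusted p no higher than 0.0454.

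The genes whose profile over the 6 retina libraries was most like that of Lyz2 were Il21, Msr1 and Mcemp1, among 14502 genes with a mean of at least 1 CPM. Their log2 CPM profiles, taken with a prior count of 2 and each centred on its own mean, lay at a root mean square distance of 0.10, 0.17 and 0.17 from that of Lyz2. Il21, an interleukin of T cells, averaged 3.71 CPM with vesicles and 0.0820 CPM with PBS. The PBS mean of Il21 is under the level of 3 counts in a library, so the prior count sets its profile there, and its fitted log2 fold change of 5.36 ± 0.47 was above that of Lyz2. Msr1, a macrophage scavenger receptor, averaged 38.0 CPM with vesicles and 1.95 CPM with PBS, and Mcemp1, a membrane protein of mast cells and myeloid cells, 13.4 CPM with vesicles and 0.747 CPM with PBS. For Cd68 the nearest were Gm4544, Asf1b and Trim12a, at 0.10, 0.12 and 0.14. Asf1b, a histone chaperone of dividing cells, averaged 32.8 CPM with vesicles and 11.0 CPM with PBS. All 6 libraries fall in 2 groups, so a profile of this kind mostly ranks genes by the size of their difference between groups.

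In the pericyte-labelled cells Ctsc was the member that rose, and the other 9 did not pass the test. Of the 10 members, all tested there, 1 was called higher and 0 lower, where 10.9% of 16975 genes were called higher and 8.9% lower (19.8% in all) by edgeR's quasi-likelihood test. At an unadjusted p under 0.05 the counts of members were 5 and 0. Such p-values were common: Grn, with an unadjusted p of 0.0433 in that test, ranked 4830th by p of the 16975 genes. DESeq2 called 2 members higher and 0 lower, against 1827 higher and 1499 lower of 16765 genes. Ctsc had 39.6, 35.6 and 34.8 CPM with vesicles, against 20.3, 17.5 and 20.3 CPM with PBS. All vesicle libraries were above all PBS libraries, and the log2 fold change was 0.92 ± 0.09 (95% interval 0.73 to 1.10; adjusted p = 1.02e-07), a 1.89-fold difference.

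Lyz2 had 116, 87.2 and 74.7 CPM with vesicles, against 69.8, 74.9 and 70.7 CPM with PBS in the pericyte-labelled cells. Vesicle library 3 fell just inside the PBS range, and the log2 fold change of 0.37 ± 0.15 (95% interval 0.02 to 0.72) was not called (adjusted p = 0.143), though it was called without vesicle library 3 (adjusted p = 0.00047) and with no filter on low counts (adjusted p = 5.62e-05). Without vesicle library 1, the highest of the 6, the log2 fold change of Lyz2 was 0.17 ± 0.07 (adjusted p = 0.063, edgeR's quasi-likelihood test). Lyz1 had 17, 25 and 31 counts with vesicles and 17, 18 and 6 counts with PBS, and its interval ran from -0.31 to 1.98 around a log2 fold change of 0.84 (adjusted p = 0.347). The 3 values of each group were under 1 CPM and overlapped.

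Cd68 had 7.75, 6.89 and 5.46 CPM with vesicles, against 5.11, 5.26 and 4.48 CPM with PBS, a log2 fold change of 0.44 ± 0.16 that was not called (adjusted p = 0.0683) and was called without vesicle library 3 (adjusted p = 0.0259). Ctsb, the most abundant member by counts, had 1225, 1187 and 1132 CPM with vesicles, against 1123, 1033 and 1061 CPM with PBS, a log2 fold change of 0.14 ± 0.06 (adjusted p = 0.105, edgeR, and 0.0345, DESeq2). Neither gene had overlapping groups. With Ctsc they made 3 of 10 members with all vesicle libraries above all PBS libraries, against 17.4% of all genes, and 0 were below, against 16.4%.

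The other 5 had overlapping groups in the pericyte-labelled cells and were not called. Grn had 193, 213 and 194 CPM with vesicles and 194, 180.0 and 176 CPM with PBS (log2 fold change 0.13 ± 0.06, adjusted p = 0.152, and 0.0375 without vesicle library 1). Ctsz had 307, 304 and 290.2 CPM with vesicles and 296, 274 and 271 CPM with PBS. Lgmn had 244, 250.2 and 226 CPM with vesicles and 234, 226 and 218 CPM with PBS. Their log2 fold changes were 0.10 ± 0.06 and 0.09 ± 0.06, with 95% intervals from -0.02 to 0.22 and from -0.03 to 0.21. Ctsd had 562, 511 and 501 CPM with vesicles and 542, 480.4 and 489 CPM with PBS (log2 fold change 0.06 ± 0.06). Ctss had 5.13, 4.51 and 2.96 CPM with vesicles and 2.80, 3.89 and 3.37 CPM with PBS, near the lower end of the members in these cells. All 10 log2 fold changes lay above 0, against 50.1% of all genes tested, with a median of 0.23 against 0.00.

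**Figure D3:**
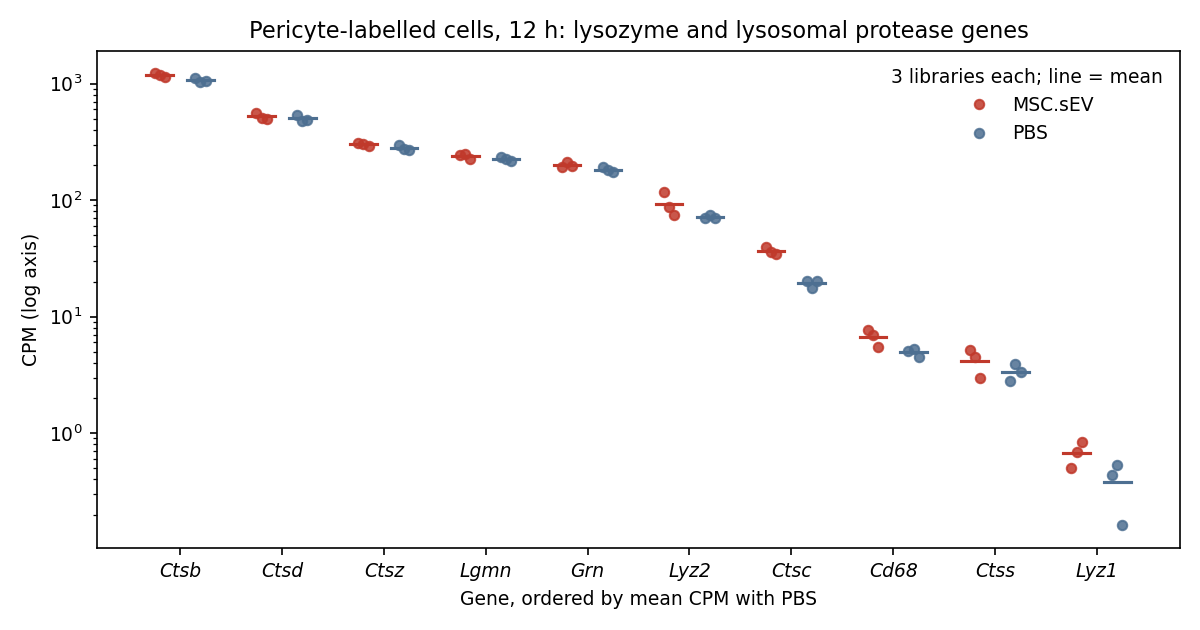
Normalised counts (CPM, log axis) of the 10 genes in pericyte-labelled cells after 12 hours, with 3 MSC.sEV libraries left of 3 PBS libraries for each gene, points for libraries and lines for means. Ctsc stood at 34.8 to 39.6 CPM with vesicles and at 17.5 to 20.3 CPM with PBS, and the groups of most other members lay close together.

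Per length, the pericyte-labelled cells had Ctsd first (223 CPM per kilobase with vesicles and 214 with PBS), then Ctsz (209 with vesicles and 195 with PBS) and Ctsb (195 with vesicles and 177 with PBS). Lyz2, at 70.5 CPM per kilobase with vesicles and 54.6 with PBS, came 5th with vesicles and 5th with PBS. The ratio of Lyz2 to Ctss per length was 23.4, 19.9 and 26.1 with vesicles and 25.7, 19.9 and 21.6 with PBS, so the 2 groups overlapped. Ctsc and Cd68 changed places: Ctsc was 7th with vesicles at 6.31 CPM per kilobase and 8th with PBS at 3.34, while Cd68 was 8th with vesicles at 5.33 and 7th with PBS at 3.94.

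Monocyte, macrophage and neutrophil markers had low summed levels in these cells. Of 13 monocyte and macrophage markers 11 were tested and 3 were called higher (Cd14, Ptprc and Adgre1), Ccr2 was at 0 in all libraries, and the sum was 74.0, 61.5 and 58.0 CPM with vesicles, against 32.6, 30.8 and 30.7 CPM with PBS. Cd14, the lipopolysaccharide co-receptor, had 50.9, 39.3 and 38.3 CPM with vesicles and 17.3, 12.6 and 13.2 CPM with PBS. None of 10 neutrophil markers had enough counts to be tested. Their sum was at most 0.484 CPM with vesicles and 0.337 CPM with PBS, and Ly6g, Retnlg, Cxcr2 and S100a9 were at 0. The 7 markers of resting microglia summed to between 137 and 153 CPM with vesicles and between 149 and 156 CPM with PBS, nearly all of it Sall1, a transcription factor gene also active outside microglia, at 129 to 147 CPM with vesicles and 141 to 147 CPM with PBS. Siglech was at 0 in all libraries, and of the 4 tested 0 were called by edgeR and 0 by DESeq2, while 1 was lower at an unadjusted p under 0.05. The part of such cells in the level of Ctsc or Lyz2 was not tested.

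The vesicle effect was compared between the tables in 1 limma fit of the 13712 genes tested in both, as the log2 fold change in the retina minus that in the pericyte-labelled cells. Of the 9 members tested in both, 5 were called above 0 and 1 below, where 7.52% of genes were called above 0 and 4.57% below (12.1% in all) at an adjusted p under 0.05. Lyz2 moved more in the retina, by 3.72 ± 0.29 on the log2 scale (95% interval 3.08 to 4.37; adjusted p = 3.69e-05). So did Ctsc, which was called higher in both, by 1.02 ± 0.17 (95% interval 0.66 to 1.39; adjusted p = 0.000685). Ctsz differed by 0.65 ± 0.14 (adjusted p = 0.00533), Ctsd by 0.45 ± 0.13 (adjusted p = 0.0256) and Cd68 by 1.10 ± 0.34 (adjusted p = 0.0419).
Lgmn differed in the other direction, by -0.40 ± 0.11 (adjusted p = 0.0176, limma). Grn (0.65 ± 0.22, 95% interval 0.19 to 1.12), Ctss (0.42 ± 0.30, interval -0.22 to 1.06) and Ctsb (0.17 ± 0.12, interval -0.08 to 0.41) did not pass. With 1 library left out at a time, the Cd68 difference was called only without retina vesicle library 3, retina PBS library 1 or pericyte vesicle library 1, and its adjusted p reached 0.201 without retina PBS library 2. That of Ctsd was lost without retina vesicle library 2, retina PBS library 2, pericyte vesicle library 2 or 3 or pericyte PBS library 1 (up to 0.101), and that of Lgmn without retina vesicle library 2, retina PBS library 2 or pericyte PBS library 3 (up to 0.0572). Lyz2, Ctsc and Ctsz were called whichever library was left out. Grn was called without retina vesicle library 3 or retina PBS library 3 (0.00523 and 0.0309). The 2 settings differ in tissue, in time (1 day and 12 hours) and in being tissue or culture, which cannot be told apart.

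**Figure D4:**
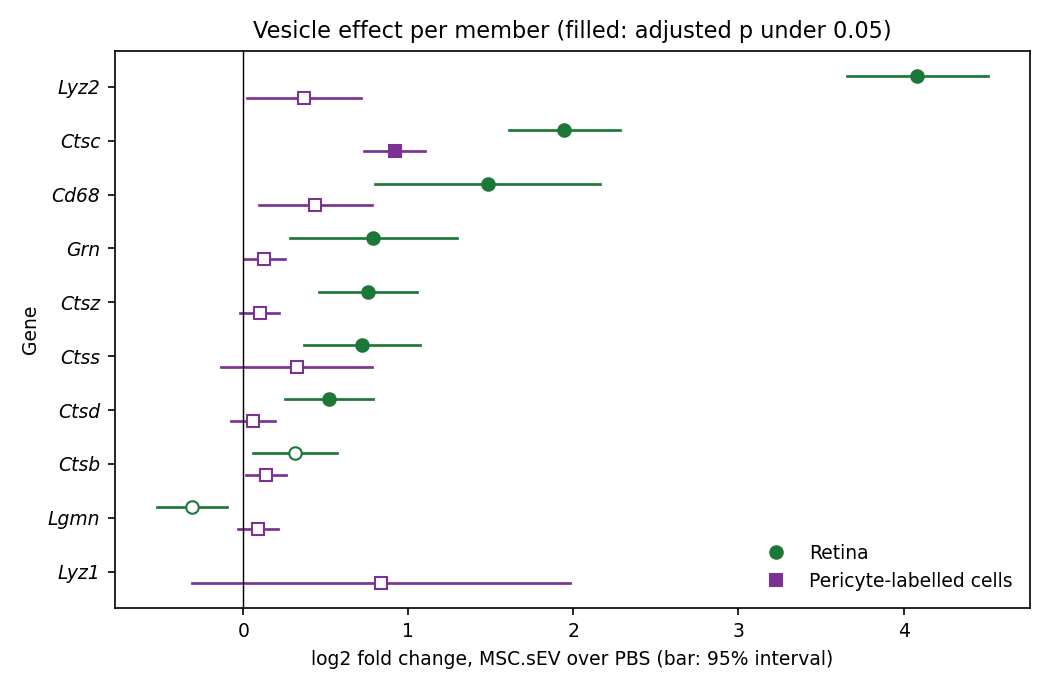
Log2 fold change (MSC.sEV over PBS) of each gene with its 95% interval, in retina (circles) above pericyte-labelled cells (squares), filled where the adjusted p was under 0.05. Lyz2 lay at 4.08 in the retina and 0.37 in the pericyte-labelled cells, and Ctsc was the gene called in both, at 1.94 and 0.92.

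Other genes, of the lysosome or related to its proteases, its regulators or lysozyme, were read from 9 lists. Among 9 protease inhibitors (cystatins, stefins and Slpi), 7 were tested in the retina, where 6 rose and 0 fell. Their median log2 fold change was 2.45 against -0.02 over all genes. That median was the value of Stfa1, which held 10, 13 and 11 counts with vesicles and 2, 0 and 4 with PBS. The Stfa1 call (adjusted p = 0.0458, edgeR's quasi-likelihood test) was lost in DESeq2 (0.0954) and, in edgeR, without the lens-richest libraries (0.187). Slpi, an inhibitor of neutrophil elastase and cathepsin G, averaged 22.1 ± 4.83 CPM with vesicles and 0.530 ± 0.321 CPM with PBS (SD, n = 3 each; log2 fold change 5.35 ± 0.35, adjusted p = 5.81e-05, edgeR's quasi-likelihood test). Stfa2l1, a stefin that inhibits cysteine cathepsins, averaged 5.73 ± 2.02 CPM with vesicles, while its PBS libraries held 0, 0 and 2 counts (adjusted p = 0.000267). Stfa3 rose by 3.52 ± 0.47 on the log2 scale (adjusted p = 0.00125). Cstb, the general intracellular stefin, averaged 142 ± 13.3 CPM with vesicles and 99.3 ± 1.49 CPM with PBS (log2 fold change 0.51 ± 0.10, adjusted p = 0.00624). Among the pericyte-labelled libraries 4 of these were tested and 1 rose, Cstb, by 0.25 ± 0.07 (adjusted p = 0.0165).

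Of 9 other cathepsins, 6 were tested in the retina, where 2 rose and 1 fell (median log2 fold change 0.47). Ctsf, a cysteine cathepsin, fell to 126 ± 6.21 CPM with vesicles, against 194 ± 15.7 CPM with PBS (log2 fold change -0.62 ± 0.09, adjusted p = 0.00243). Ctsh, an aminopeptidase, averaged 64.9 ± 5.81 CPM with vesicles and 38.6 ± 6.86 CPM with PBS (0.75 ± 0.14, adjusted p = 0.00647), and Ctsk, the collagen-cleaving cathepsin of osteoclasts, rose by 1.45 ± 0.36 (adjusted p = 0.0237). Ctsl had 802, 1617 and 455 CPM with vesicles, against 309.8, 292 and 309.8 CPM with PBS. Its vesicle libraries were ordered like the lens sums, as were those of the members Lyz2, Ctsc, Ctsz, Ctsd, Ctsb and Grn. Ctsl was not called (adjusted p = 0.0932, edgeR's quasi-likelihood test), though it was by DESeq2 (0.0122) and without vesicle library 2 or 3 (0.0279 and 0.00705). Of 7 tested in the pericyte-labelled cells, 0 were called by edgeR and 0 by DESeq2, and 1 had an unadjusted p under 0.05.

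Among 13 genes of the lysosomal membrane and of delivery to it, 3 rose and 0 fell in the retina, with a median near that of all genes (0.08 against -0.02). Lamp2, a main membrane glycoprotein, averaged 476 ± 114 CPM with vesicles and 182 ± 25.4 CPM with PBS (log2 fold change 1.39 ± 0.19, adjusted p = 0.00264). Cd63, a tetraspanin of late endosomes and of exosomes, averaged 371 ± 127 CPM with vesicles and 109 ± 4.53 CPM with PBS (1.77 ± 0.25, adjusted p = 0.00489). Laptm5, a lysosomal protein of blood cells, rose by 2.83 ± 0.47 (adjusted p = 0.00927), and Lamp1 had 0.23 ± 0.09 (adjusted p = 0.105). Sort1, the sorting receptor sortilin, fell in the pericyte-labelled cells to 158 ± 15.0 CPM with vesicles, against 199 ± 2.84 CPM with PBS (-0.33 ± 0.06, adjusted p = 0.000616). Scarb2, the receptor that delivers glucocerebrosidase, rose by 0.19 ± 0.05 (adjusted p = 0.0152), and the other 11 were not called.

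Of 32 other hydrolases and cofactors, 5 rose in the retina (median log2 fold change 0.33). Acp5, the tartrate-resistant acid phosphatase, averaged 6.63 ± 1.61 CPM with vesicles and 0.638 ± 0.570 CPM with PBS (3.36 ± 0.63, adjusted p = 0.0102). Lipa, the acid lipase, rose by 0.67 ± 0.15 (adjusted p = 0.015) and Plbd1, a phospholipase B-like protein of myeloid cells, by 2.97 ± 0.56 (adjusted p = 0.0152). Acp5 was the 1 of 31 called in the pericyte-labelled cells, at 1.61 ± 0.103 CPM with vesicles and 0.670 ± 0.119 CPM with PBS (1.26 ± 0.36, adjusted p = 0.0156).

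The subunits of the V-ATPase, the proton pump that acidifies the lysosome, were split in the retina, where 2 of 16 tested rose and 4 fell. Atp6v0e averaged 111 ± 23.6 CPM with vesicles and 56.9 ± 2.98 CPM with PBS (log2 fold change 0.96 ± 0.14, adjusted p = 0.00237). Tcirg1, the a3 subunit of osteoclasts and phagocytes, averaged 13.4 ± 3.79 CPM with vesicles and 5.55 ± 0.275 CPM with PBS (1.27 ± 0.23, adjusted p = 0.00531). Atp6v0c, the proteolipid of the proton channel, fell to 286 ± 42.6 CPM with vesicles, against 498 ± 84.2 CPM with PBS (-0.80 ± 0.15, adjusted p = 0.00698), and Atp6v0b fell by 0.32 ± 0.08 (adjusted p = 0.0305). Without the lens-richest library of each group, the 2 that rose were still called and the 4 that fell were not. The log2 fold changes of these 4 were then from -0.67 to -0.23 (adjusted p from 0.0872 to 0.179, edgeR's quasi-likelihood test). Tcirg1 in the pericyte-labelled cells had 196, 234 and 215 CPM with vesicles, against 135, 129.6 and 126 CPM with PBS. The groups were well apart (0.73 ± 0.06, adjusted p = 2.23e-08). Atp6v1e1 rose by 0.20 ± 0.06 (adjusted p = 0.0341), and the other 15 were not called.

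MiT/TFE factors bind CACGTG, the letters in capitals in the Ctsd stretch. In the retina Tfec, the member of macrophages, had 5.41, 3.03 and 2.10 CPM with vesicles, while its PBS libraries held 3, 1 and 0 counts (adjusted p = 0.00138). Tfeb, Tfe3 and Mitf were not called there. In the pericyte-labelled cells Tfe3 was the 1 of 3 called, at 95.8 ± 6.99 CPM with vesicles and 71.6 ± 5.52 CPM with PBS (0.42 ± 0.07, adjusted p = 0.000123). The serine proteases that Ctsc activates had few counts: 2 of 8 were tested in the retina. Gzma, granzyme A of cytotoxic lymphocytes, averaged 2.55 ± 1.24 CPM with vesicles, with 1, 0 and 4 counts in its PBS libraries (adjusted p = 0.00414). Prtn3, the neutrophil proteinase, was not called (-0.32 ± 0.47, adjusted p = 0.689), nor was it in the pericyte-labelled cells, where 1 of the 8 was tested.

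All 4 genes that process MHC class II chains beside Ctss rose in the retina. Cd74, the invariant chain, averaged 38.7 ± 8.81 CPM with vesicles and 5.68 ± 2.55 CPM with PBS (log2 fold change 2.77 ± 0.37, adjusted p = 0.00442). Ifi30, a lysosomal thiol reductase, rose by 0.81 ± 0.17 (adjusted p = 0.0106), H2-DMb1 by 1.66 ± 0.39 (adjusted p = 0.0178) and H2-DMa by 0.95 ± 0.27 (adjusted p = 0.042), the last 2 being chains of the peptide-loading molecule. Of the 4, 1 rose in the pericyte-labelled cells, Cd74, at 2.30 ± 0.402 CPM with vesicles and 0.691 ± 0.0852 CPM with PBS (1.72 ± 0.32, adjusted p = 0.000424). Of 7 other genes of the lysozyme family, 1 had enough counts for a test in the retina, Lalba, a milk protein subunit, with 4.84, 12.9 and 3.08 CPM with vesicles, against 0.196, 0.0607 and 0.960 CPM with PBS (adjusted p = 0.0307). The call was lost without vesicle library 1 or PBS library 1 or 2 (adjusted p = 0.0719, 0.102 and 0.085).

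Not all of these list calls held when libraries were left out. Of the 31 list genes called in the retina, 17 were called whichever single library was left out and 11 were also called without the lens-richest library of each group, among them Slpi, Stfa2l1, Stfa3, Cstb, Tfec, Lamp2, Cd63, Atp6v0e, Tcirg1 and Ctsf. Of the 4 class II genes 0 were called without the lens-richest libraries, with log2 fold changes from 0.80 to 2.70 and adjusted p from 0.0568 to 0.132 in edgeR's quasi-likelihood test. In the retina, Atp6v0b was lost without any 1 of the vesicle libraries and without PBS library 2 or 3 (adjusted p from 0.0517 to 0.129), Ctsk was lost without vesicle library 1 or 2 or PBS library 1 or 3 (0.0644 to 0.0992), and Lipa without vesicle library 1 or 2 or PBS library 2 (0.051 to 0.0675). Plbd1 was lost without vesicle library 1 or PBS library 1 (0.0532 and 0.0671), Ifi30 without vesicle library 1 (0.0555), H2-DMb1 without vesicle library 2 or PBS library 1 or 2 (0.0546 to 0.076), and H2-DMa without vesicle library 1 or 2 or PBS library 2 or 3 (0.102 to 0.158).
Of the 8 called in the pericyte-labelled cells, 4 were called whichever library was left out: Tcirg1, Tfe3, Cd74 and Sort1. Acp5 was lost without PBS library 3 (adjusted p = 0.0661, edgeR's quasi-likelihood test), Scarb2 without PBS library 2 or 3 (0.107 and 0.109), Cstb without vesicle library 1 or PBS library 2 or 3 (0.058 to 0.0831), and Atp6v1e1 without vesicle library 1 or any PBS library (0.0851 to 0.134).

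**Figure D5:**
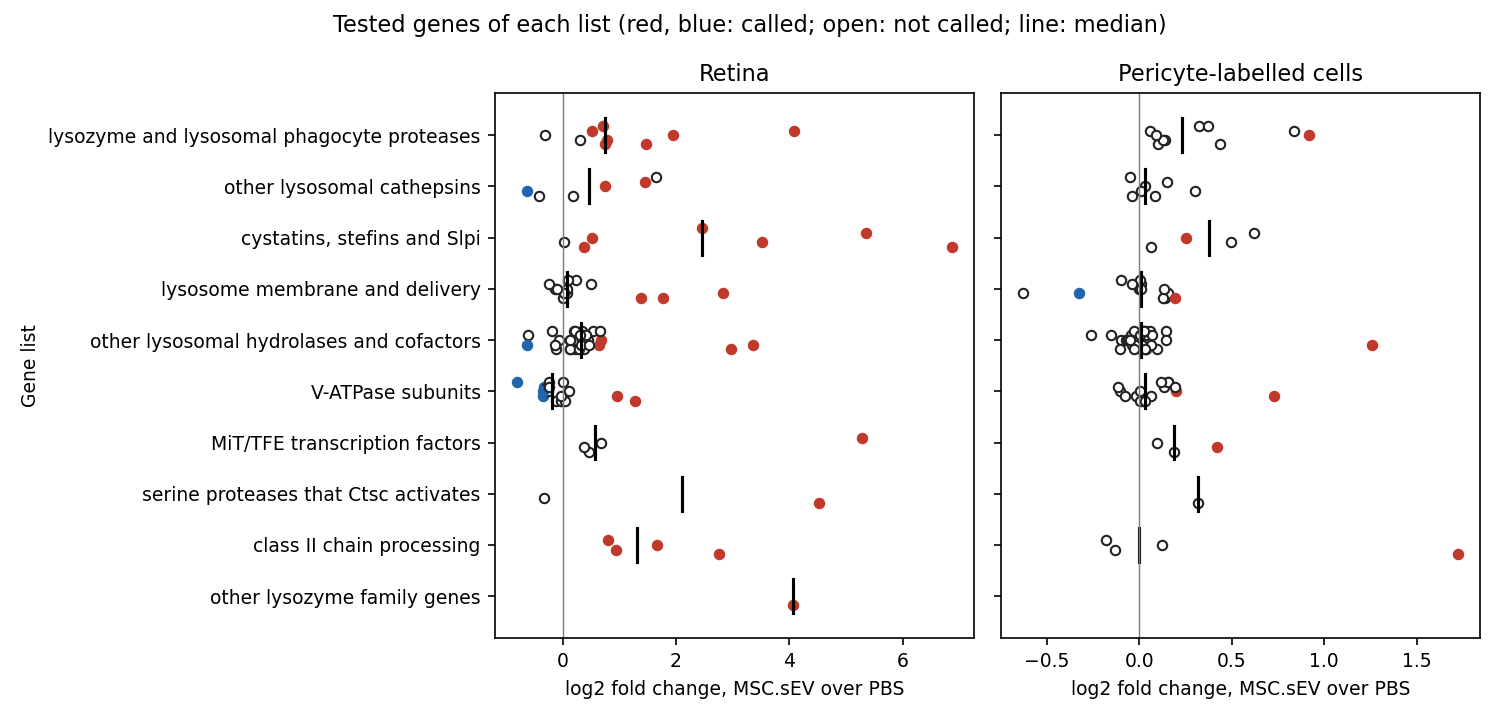
Log2 fold changes (MSC.sEV over PBS) of the tested genes of the 10 members and of 9 lists of related genes, lysosomal or not. Retina is on the left and pericyte-labelled cells on the right, each panel with its own scale. Filled points passed the test (red higher, blue lower), open points did not, and lines mark medians. In the retina the cystatin and Slpi list had a median of 2.45 and the V-ATPase list one of -0.18.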

How the data were processed

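Both tables, as the authors deposited them, give unnormalised counts per gene, 1 table for 6 retina libraries and 1 for 6 libraries of brain microvascular pericytes. Per the labels' protocols, Trizol was used for extraction and the NEBNext Ultra RNA kit for library construction. The submitters' processing notes name FastQC 0.11.8, HISAT2 2.0.5, featureCounts 1.5.0-p3 and limma, while build, annotation and strand setting are not given in the sources used here. Positions are those of GENCODE M21 and RefSeq on GRCm38, matched by gene ID or symbol. The tables were made over different gene sets, so levels were not compared between them.

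Each table was fitted in R 4.3.3 with edgeR 4.0.16: filterByExpr with a minimum count of 10, TMM scaling and the 2-sided quasi-likelihood test of vesicles against PBS, with Benjamini-Hochberg adjusted p under 0.05 over all genes as a call. The difference between the tables was fitted with limma 3.58.1 (voom, a weight per table). An exact permutation test of 3 against 3 cannot give a p under 0.1, so p-values come from the models across genes. Intervals on counts of single genes cover counting error only. Levels per kilobase used the union of exon lengths. Alternatives were DESeq2 1.42.0, RLE size factors, no weight per table, no filter on low counts, Lyz1 and Lyz2 summed, a replicate block for the pericytes, and libraries left out. The fits were tested on simulated data. Column numbers name the retina libraries and pair nothing.

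The members, lists and tests were chosen with earlier results of these data known. Named genes were all members, up to 4 genes of each list with the smallest p, and the 3 nearest profiles of Lyz2 and Cd68; not every gene this takes in is reported here. Markers given by name beside the sum of their list were chosen after their values were seen.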

Additional observations from a re-analysis of the deposited data

Results flagged for a closer look

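The vesicle effect of 6 members differed between the retina and the pericyte-labelled cells by the limma test of the difference itself, each with 3 libraries a group. On the log2 scale the effect in the retina minus that in the pericyte-labelled cells was 3.72 for Lyz2, 1.02 for Ctsc, 1.10 for Cd68, 0.65 for Ctsz, 0.45 for Ctsd and -0.40 for Lgmn. The differences of Lyz2, Ctsc and Ctsz were called whichever library was left out. Those of Cd68, Ctsd and Lgmn were lost in some of these fits (adjusted p up to 0.201, 0.101 and 0.0572, limma). Ctsc was called higher in both tables, and Lyz2, Cd68, Ctsz and Ctsd were called in the retina. The log2 fold change of Lgmn was -0.31 in the retina and 0.09 in the pericyte-labelled cells, neither of them called. Tissue, time and culture differ together between the tables and cannot be told apart.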

How the results depend on the processing

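No member changed direction under any alternative. The retina count of 2449 called genes was 1420 without the lens-richest libraries and between 1328 and 2909 with single libraries left out. Members called higher there numbered 7, and between 4 and 8 with single libraries left out (4 without PBS library 2). DESeq2 called 1 member lower, Lgmn, and so did the fit without PBS library 3, for a range of 0 to 1. In the pericyte-labelled cells 1 member was called higher, against 2 by DESeq2 (Ctsb joined Ctsc), 2 with no filter on low counts, and between 1 and 3 with single libraries left out (3 without vesicle library 3). Called genes there numbered 3365, and between 2412 and 3500 with single libraries left out. With the replicate number as a block 2 members were called, Lyz2 being added (0.35 ± 0.09, adjusted p = 0.00591), and 3287 genes. The labels give the numbers no meaning, and same-numbered pericyte libraries did not deviate together (correlations 0.03, 0.02 and -0.02 over 16975 genes). No paired analysis was possible in the retina because its columns carry no numbers from the labels. For the difference between tables, 1658 genes were called, and between 1001 and 2149 with single libraries left out, with 3 to 6 members above 0 and 0 to 1 below; 3 were above 0 without retina vesicle library 2, retina PBS library 2, vesicle library 2 or 3 of the pericytes, or their PBS library 1. The causes of these shifts were not tested. Leaving out a library changed both the number of libraries and which of them remained. Depth limits Lyz1 in the retina and in the pericyte-labelled cells. In the latter Ctss held 108 to 172 counts a library and Cd68 166 to 260, and a limit from depth was not tested for these genes.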
